A study of Homo sapiens with 6 samples.

Results

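The 34 genes described here make cholesterol and fatty acids or control that synthesis. They were taken by name from a deposited table of 29185 genes, all 34 were found there, and all 34 were measured well enough to be tested among 15803 genes. They comprise 18 enzymes of cholesterol synthesis, 6 genes of sterol sensing, SREBP regulation and sterol transport, and 10 genes of fatty acid synthesis. The RNA came from SKOV3, an established human ovarian cancer cell line. Stable SKOV3 cells carrying a KLF5 knockdown construct in the pLKO.1-EGFP-Puro vector and selected with puromycin (sh-KLF5, 3 libraries) were compared with control cells (sh-NC, 3 libraries), whose genotype the sample labels give as WT. No source says whether the libraries of a group were separate cultures or how many hairpins or clones the knockdown group holds, so p-values measure only the spread between these libraries. The comparison asks which transcripts differ when KLF5, a zinc finger transcription factor, is silenced.

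Cholesterol is built from acetyl-CoA through mevalonate, isoprenoid diphosphates, squalene and lanosterol, and fatty acids are built from the same acetyl-CoA through malonyl-CoA. Both routes are controlled by the SREBP transcription factors, which sit in the endoplasmic reticulum membrane bound to SCAP. When sterols are scarce SCAP escorts them to the Golgi, where they are cleaved and released to the nucleus, and when sterols are plentiful the INSIG proteins hold SCAP back. SREBP2 mainly drives cholesterol genes and SREBP1 mainly fatty acid genes, often together with NF-Y, which binds CCAAT boxes. Rapidly growing tumour cells commonly run both routes at a high rate.

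The promoters of the members were examined first, since shared sequence is a property that membership did not use. RefSeq windows on GRCh38.p14, which run from 250 bases before to 50 bases after each transcription start, were found for 30 of the 34 members (43 windows). The exceptions were ACAT2, FDFT1, SQLE and FASN. The letters CCAAT, on either strand, were found in 26 of the 43 member windows (60.5%) and in 34.6% of all 35116 windows of the table. Counted by gene, with a hit in any of its windows, 22 of 30 members (73.3%) held it, beside 39.7% of all genes with windows. By list, 13 of 15 cholesterol enzymes, 6 of 9 fatty acid genes and 3 of 6 regulators held it. The GC box GGGCGG, the kind of motif bound by Sp and KLF proteins, was found on either strand in 37 of 43 member windows (86.0%) and in 45.0% of all windows. The sterol regulatory element core TCACNCCAC was found in 1 of 43 member windows (2.33%), that of SREBF2, and in 1.13% of all windows. No member window held hits of different motifs that shared a base. The windows of the table cover 27305 genes, more than the 15803 tested here, so the members were not set beside expressed genes alone. These are descriptions of letters in a short window, and no binding was measured.

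Upstream stretches of 250 bases are shown for the member that differed most between the groups (STARD4), for 3 members whose knockdown libraries lay furthest apart (INSIG1, MSMO1 and SCD), and for the member with the sterol element (SREBF2). Each runs 5′ to 3′ on the strand of its gene and ends at the base before the start, and capitals mark CCAAT or its reverse ATTGG and, in SREBF2, the sterol element.
STARD4 (chr5:111512536-111512785, minus strand): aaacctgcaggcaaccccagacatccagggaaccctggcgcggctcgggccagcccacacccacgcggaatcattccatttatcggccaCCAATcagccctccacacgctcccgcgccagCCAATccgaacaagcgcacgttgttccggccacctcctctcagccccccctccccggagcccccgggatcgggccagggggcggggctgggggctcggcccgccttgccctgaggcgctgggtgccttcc
INSIG1 (chr7:155297628-155297877, plus strand): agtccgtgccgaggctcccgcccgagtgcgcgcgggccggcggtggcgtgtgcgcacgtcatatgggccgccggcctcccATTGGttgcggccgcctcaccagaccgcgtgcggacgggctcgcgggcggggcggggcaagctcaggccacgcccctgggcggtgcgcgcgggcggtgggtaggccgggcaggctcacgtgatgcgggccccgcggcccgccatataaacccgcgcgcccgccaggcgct
MSMO1 (chr4:165327419-165327668, plus strand): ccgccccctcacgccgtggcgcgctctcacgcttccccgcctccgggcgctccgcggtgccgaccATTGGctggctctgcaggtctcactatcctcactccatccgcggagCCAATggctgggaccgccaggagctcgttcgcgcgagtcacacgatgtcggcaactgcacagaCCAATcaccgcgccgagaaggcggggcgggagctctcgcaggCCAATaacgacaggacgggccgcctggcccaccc
SCD (chr10:100346983-100347232, plus strand): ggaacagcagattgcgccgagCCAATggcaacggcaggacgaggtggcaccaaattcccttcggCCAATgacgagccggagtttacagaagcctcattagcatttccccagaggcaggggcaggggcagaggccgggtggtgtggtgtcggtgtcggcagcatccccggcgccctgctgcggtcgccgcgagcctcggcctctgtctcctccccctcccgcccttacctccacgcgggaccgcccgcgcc
SREBF2 (chr22:41832855-41833104, plus strand): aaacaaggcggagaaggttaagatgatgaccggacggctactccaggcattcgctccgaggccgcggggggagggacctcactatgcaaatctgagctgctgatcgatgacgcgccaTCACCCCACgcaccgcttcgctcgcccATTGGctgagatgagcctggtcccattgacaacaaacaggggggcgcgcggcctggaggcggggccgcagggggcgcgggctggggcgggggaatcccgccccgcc
STARD4 and SCD each held a pair of CCAAT boxes, MSMO1 held 4, and INSIG1 and SREBF2 each held 1. In SREBF2 the sterol element began 133 bases before the start and the CCAAT box began 106 bases before it.

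KLF5 itself was checked before the members. In normalized counts (reads divided by a factor for each library) it stood at 4371, 4425 and 4494 in sh-NC and 1745, 1440 and 1436 in sh-KLF5. The groups did not overlap, and the mean fell from 4430 ± 61.3 to 1540 ± 177 (SD, n = 3 each), a log2 fold change of -1.53 ± 0.12 (SE, limma, adjusted p = 2.47e-07). Totals were 15852319 to 17543896 reads in sh-NC and 16009859 to 16871350 in sh-KLF5, and mitochondrial genes took 4.78 to 5.62% of reads. Of the markers of ovarian epithelial carcinoma, KRT8, KRT18, PAX8 and ERBB2 were well read in every library, with PAX8 the lowest of the 4 at 249 to 399.8 normalized counts, and the summed level of 8 such markers was 25248 to 30076 in sh-NC and 11394 to 16237 in sh-KLF5. Most of that sum is KRT8 (19441 to 23274 and 7564 to 11491 normalized counts). Of the 8, KRT8, KRT18 and MUC16 were lower by limma (log2 fold changes -1.17, -0.64 and -1.54), and EPCAM (-0.03), CDH1 (-0.15), PAX8 (-0.25), ERBB2 (-0.33) and KRT19 (1.14) did not pass. The values of KRT19 and MUC16 rest on few reads, 2 to 17 and 15 to 124 per library. The 3 fibroblast markers summed to 520 to 853 in sh-NC and 204 to 477 in sh-KLF5, the 3 endothelial markers to 66.1 to 87.0 and 34.1 to 73.7, and the 3 blood cell markers analysed to 149 to 222 and 191 to 379, nearly all of it CD14, which did not pass (0.66). Among the fibroblast markers, DCN was lower by limma (log2 fold change -1.82), LUM did not pass (-0.45) and PDGFRB was not tested. Of the defining markers, CDH5, PTPRC and LYZ were at 3 reads or fewer in every library. The part of these marker differences in the results below was not tested.

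With all 6 libraries, 1 of the 34 members passed the test (Benjamini-Hochberg adjusted p under 0.05, limma), against 12.9% of all tested genes. It was STARD4, which was lower in sh-KLF5, the direction of 6.85% of tested genes. In such bulk RNA, fewer cells with a transcript and less of it per cell cannot be told apart. No member was higher by limma or by edgeR, against 6.04% and 6.37% of tested genes, while DESeq2 called 2 members higher, FASN and ELOVL6, against 6.9%. At an unadjusted p under 0.05, 5 members stood out against 26.2% of tested genes: FASN and ELOVL6 on the higher side, and ACAT2, FDPS and STARD4 on the lower side. The groups did not overlap for 3 members (INSIG2 higher, ACAT2 and STARD4 lower), whereas 31.3% of tested genes had groups that did not overlap.

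The members had a wide spread among the sh-KLF5 libraries. This comparison was chosen after the values were seen and is given without a test. The 3 sh-NC libraries were close to each other, with a median log2 range of 0.15 over the members and 0.27 over all tested genes. The 3 sh-KLF5 libraries had a median log2 range of 0.99 over the members and 0.42 over all tested genes. The range among sh-KLF5 libraries was over 1 on the log2 scale in 17 of 34 members, but in 12.1% of tested genes and in 1.9% of the 10659 tested genes with a mean of at least 100 normalized counts. Among sh-NC libraries it was over 1 in 0 of 34 members, in 7.84% of tested genes and in 0.263% of the better measured ones. In 31 of 34 members sh-KLF5 3 was the lowest of its group, the position it held in 30.0% of tested genes.

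In 19 of 34 members, sh-KLF5 1 and sh-KLF5 2 lay above all sh-NC libraries while sh-KLF5 3 lay below all of them, an arrangement found in 1.47% of tested genes. Relative to the sh-NC mean, the median member was 0.41 and 0.40 higher on the log2 scale in sh-KLF5 1 and 2, and 0.46 lower in sh-KLF5 3. The same medians over all tested genes were within 0.01 of 0 in each library. Among the 10659 better measured genes, 30 were more than 1 log2 unit lower in sh-KLF5 3 than the mean of the other knockdown libraries, and 12 of these 30 (40.0%) were members: HMGCS1, MVK, MVD, IDI1, LSS, MSMO1, HSD17B7, DHCR7, INSIG1, SREBF1, SCD and FADS2. In the other direction there were 7 such genes and no member among them. Across all tested genes, by contrast, sh-KLF5 1 stood furthest from its group by the number of such genes. There, sh-KLF5 3 was more than 1 log2 unit below the other knockdown libraries in 399 genes and above in 272, against 554 and 317 for sh-KLF5 1 and 192 and 349 for sh-KLF5 2. KLF5 was as low in sh-KLF5 3 as in sh-KLF5 2, at 1436 and 1440 normalized counts.

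**Figure D1:**
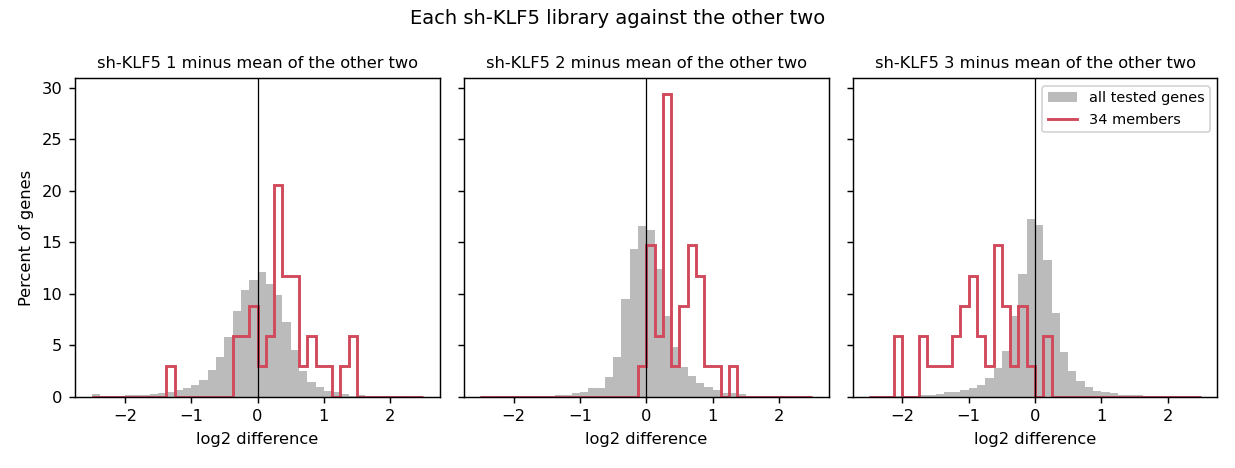
Histograms of the log2 difference between 1 knockdown library and the mean of the other knockdown libraries (x axis) as a percent of genes (y axis), with a panel per library, for all 15803 tested genes (grey) and the 34 members (red line). The members sit around a median of -0.86 in the panel of sh-KLF5 3 and around 0.32 and 0.37 in those of sh-KLF5 1 and 2, while the medians of all tested genes are near 0.

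The mevalonate steps comprise 7 enzymes, from ACAT2 to FDPS. None passed the test with all libraries, and their log2 fold changes ran from -0.50 to 0.49 with a median of 0.15, beside a median of -0.0023 over all tested genes. HMGCS1, the HMG-CoA synthase of the pathway, had 5089, 5700 and 5427 normalized counts in sh-NC and 9105, 6888 and 3469 in sh-KLF5. IDI1, the isomerase of isopentenyl diphosphate, had 1368, 1356 and 1228 in sh-NC and 3415, 2074 and 896 in sh-KLF5. In both genes the first and second knockdown libraries were above every control library and the third was below every one. MVK (mevalonate kinase) and MVD (mevalonate diphosphate decarboxylase) were arranged alike, at 783, 956 and 430.1 and at 2484, 2770 and 991 in sh-KLF5, where their sh-NC values were 497 to 621 and 1558 to 1874. PMVK, the phosphomevalonate kinase, was low throughout at 107 to 159 normalized counts, and its groups overlapped (log2 fold change -0.23 ± 0.18, SE, limma, adjusted p = 0.457).

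The enzymes at either end of this stretch, like PMVK within it, had negative log2 fold changes that did not pass. ACAT2, the cytosolic thiolase that joins acetyl-CoA units, had 1631, 1614 and 1728 normalized counts in sh-NC and 1434, 1429 and 952 in sh-KLF5. Every knockdown library was below every control library, with a log2 fold change of -0.41 ± 0.15 (SE, limma, adjusted p = 0.0821), which did not pass. FDPS, which makes the farnesyl diphosphate from which sterols and prenyl groups derive, had 1408, 1379 and 1445 in sh-NC and 961, 1380 and 740.0 in sh-KLF5 (-0.50 ± 0.17, limma, adjusted p = 0.0637), and its groups overlapped by the second knockdown library. Antisense exons cover 52.3% of the exonic bases of ACAT2 and 18.6% of those of FDPS. The largest overlap came from SOD2-OT1 in ACAT2, which has no row in the deposited table, and from RUSC1-AS1 in FDPS, with up to 301 reads. Reads of other antisense genes that may overlap them are not given here. Whether strand was used in counting is not given in the sources used here, so such reads cannot be told apart.

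The squalene and sterol steps comprise 11 enzymes, of which none passed, with log2 fold changes from -0.45 to 0.67 and a median of 0.16. MSMO1, the methylsterol monooxygenase, had the highest of them. It was read at 2067, 1937 and 2000 normalized counts in sh-NC and 6072, 3570 and 1476 in sh-KLF5, so that sh-KLF5 1 and 2 stood above the control level and sh-KLF5 3 below it. The log2 fold change of 0.67 ± 0.55 (SE, limma) had a 95% interval from -0.79 to 2.12 and an adjusted p of 0.532, and the interval holds both a fall and a large rise. SQLE, the squalene epoxidase, had 2559, 2430 and 2540 in sh-NC and 3391, 3348 and 1793 in sh-KLF5. DHCR7, which reduces the last double bond in a branch of the pathway, had 2682, 2712 and 3140 in sh-NC and 3829, 4645 and 1792 in sh-KLF5. FDFT1 (squalene synthase), LSS (lanosterol synthase), HSD17B7 and SC5D had the same arrangement, with sh-KLF5 3 at 2455, 1469, 142 and 1028 normalized counts under the lowest sh-NC values of 3095, 2537, 215 and 1085.

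The rest of the sterol steps did not share it. EBP, a sterol isomerase, stayed between 1105 and 1589 normalized counts in all libraries, with a log2 fold change of 0.01 ± 0.14. NSDHL had 365, 339 and 434 in sh-NC and 315, 550.2 and 293 in sh-KLF5, with only the second knockdown library above the controls. TM7SF2, a sterol reductase, was read at 47.1 to 99.6 normalized counts. CYP51A1, the lanosterol demethylase, was read at 84.6 to 299. Other gene models on the same strand, of which AC000120.2 overlaps most, share 79.4% of its exonic bases, so its level is uncertain.

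**Figure D2:**
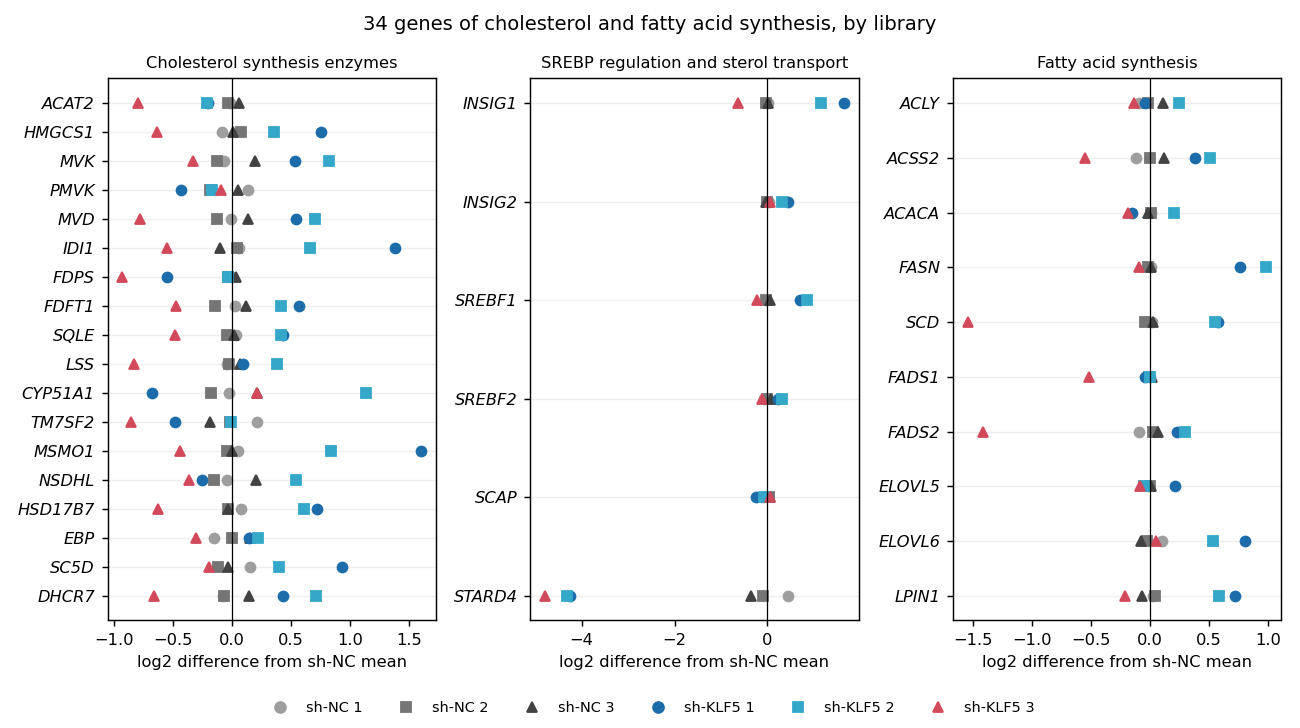
Log2 difference of each library from the sh-NC mean (x axis) for each of the 34 members (y axis), in panels for cholesterol enzymes, regulators with sterol transport, and fatty acid genes, with a marker per library. In most rows the knockdown libraries 1 and 2 lie right of 0 and library 3 left of it, at medians of 0.43, 0.41 and -0.52 for the cholesterol enzymes and 0.31, 0.40 and -0.20 for the fatty acid genes.

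Of the regulators, INSIG1, which is itself a target of SREBP and retains SCAP, varied most of all members. It had 2087, 2027 and 2106 normalized counts in sh-NC and 6485, 4625 and 1330 in sh-KLF5. The sh-KLF5 mean of 4147 ± 2611 (SD, n = 3) averages a pair of libraries above the control level and 1 below it, and the log2 fold change of 0.72 ± 0.66 (SE, limma, adjusted p = 0.571) did not pass. INSIG2, its relative with less dependence on SREBP, had 192, 186 and 185 in sh-NC and 255, 233 and 195 in sh-KLF5. All its knockdown values were above all control values, by a log2 fold change of 0.27 ± 0.16 (SE, limma, adjusted p = 0.313). INSIG2 was the only member with such a separation upwards.

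SREBF1, which encodes SREBP1, had 2139, 2129 and 2247 normalized counts in sh-NC and 3545, 3952 and 1854 in sh-KLF5. SREBF2, which encodes SREBP2, had 6490, 6789 and 7136 in sh-NC and 7927, 8484 and 6285 in sh-KLF5. Both showed the arrangement of the enzymes, with log2 fold changes of 0.45 ± 0.23 and 0.14 ± 0.13 (SE, limma, adjusted p = 0.24 and 0.521). SCAP, the escort of both, had 1418, 1540 and 1569 in sh-NC and 1269, 1437 and 1570 in sh-KLF5. SCAP did not share the arrangement, since sh-KLF5 3 was its highest knockdown library and sh-KLF5 2 lay within the control range (log2 fold change -0.09 ± 0.12, adjusted p = 0.693).

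STARD4, which carries cholesterol between membranes in the cytosol and is itself a target of SREBP2, was low in every knockdown library (GRCh38 chr5:111496033-111512590, minus strand). It had 282, 184 and 142 reads in sh-NC and 9, 9 and 6 in sh-KLF5, or 263, 181 and 151 and 9.17, 8.73 and 6.02 normalized counts. The groups did not overlap, and the fall was seen also in sh-KLF5 1 and 2, the libraries in which most members were above the controls. The mean fell from 198 ± 57.8 to 7.97 ± 1.71 (SD, n = 3 each), 24.9-fold lower, and the log2 fold change was -4.45 ± 0.30 (SE, limma, adjusted p = 6.65e-08). The log2 fold change lay between -4.63 and -4.23 over the 6 fits that each drop a library. A filter that asks for 10 reads per library throughout removes STARD4 from the test, since its knockdown libraries fall short of that. Antisense exons cover 2.18% of the exonic bases of STARD4, with the largest overlap from STARD4-AS1. That antisense neighbour did not pass (log2 fold change 0.18, adjusted p = 0.69), nor did the neighbours WDR36 (0.16) and CAMK4 (0.36). Further off within 1 Mb, NREP was higher (0.63, adjusted p = 0.0474) and EPB41L4A lower (-1.20, adjusted p = 0.00145), all by limma. These neighbours were looked at after the value of STARD4 was seen.

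**Figure D3:**
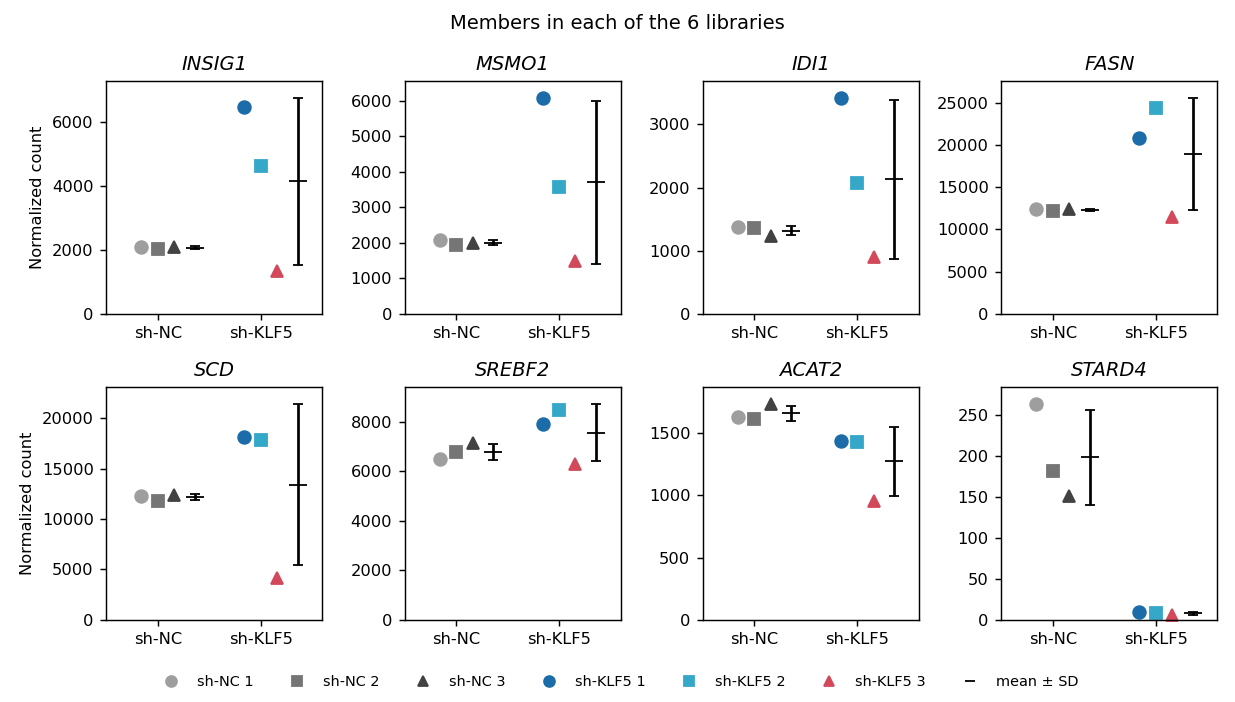
Normalized counts (y axis) of 8 members in each of the 6 libraries, with sh-NC at the left and sh-KLF5 at the right of each panel and the group mean ± SD as a black bar. In INSIG1, MSMO1, IDI1, FASN, SCD and SREBF2 the third knockdown library (red triangle) lies under the controls and the other knockdown libraries above them, while in ACAT2 and STARD4 all 3 knockdown libraries lie under the controls.

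The 10 fatty acid genes gave no call with all libraries, with log2 fold changes from -0.29 to 0.55 and a median of 0.025. FASN, the fatty acid synthase, had 12373, 12179 and 12381 normalized counts in sh-NC and 20886, 24364 and 11531 in sh-KLF5, a log2 fold change of 0.55 ± 0.21 (SE, limma, adjusted p = 0.12). SCD, the stearoyl-CoA desaturase, had 12309, 11809 and 12424 in sh-NC and 18129, 17865 and 4179 in sh-KLF5. The value of SCD in sh-KLF5 3 was 2.11 log2 units below the mean of the other knockdown libraries (a log2 difference of -2.11). Its log2 fold change was -0.14 ± 0.67 (SE, limma, adjusted p = 0.931) and turned to 0.14 by edgeR, so it has no settled direction. FADS2, the delta-6 desaturase, had 2407, 2607 and 2678 in sh-NC and 3005, 3142 and 964 in sh-KLF5. ACSS2, which makes acetyl-CoA from acetate, and LPIN1, a phosphatidate phosphatase, lay at 589 and 599 in sh-KLF5 3, under sh-NC ranges of 795 to 940.1 and 660.0 to 713. Their other knockdown libraries were above the controls, at 1128 and 1226 for ACSS2 and 1139 and 1041 for LPIN1.

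ELOVL6, which elongates saturated fatty acids, had 493, 451 and 437 in sh-NC and 805, 668 and 475 in sh-KLF5 (log2 fold change 0.46 ± 0.16, limma, adjusted p = 0.0781). Its value in sh-KLF5 3 lay within the control range, not under it. Of the genes at the entrance of the route, ACLY and ACACA had log2 fold changes near 0. ACSS2, whose knockdown libraries lay apart as given above, had 0.11 ± 0.22 (SE, limma). ACLY, which makes cytosolic acetyl-CoA from citrate, had log2 fold change 0.02 ± 0.12 (95% interval -0.24 to 0.28), and ACACA, the acetyl-CoA carboxylase, had -0.05 ± 0.12 (95% interval -0.31 to 0.21). ELOVL5 was also level at 0.03 ± 0.11. FADS1, the delta-5 desaturase, had 4413, 4561 and 3191 in sh-KLF5 beside 4518 to 4593 in sh-NC.

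Per length, as TPM (reads over exonic length, scaled to the same total in each library), the control cells held most of SCD (535 ± 14.4, SD, n = 3), then FASN (309.8 ± 8.75), HMGCS1 (271 ± 16.8) and ACLY (267 ± 11.6). HMGCS1 and ACLY did not differ beyond their spread. At the low end stood TM7SF2 (6.0 ± 1.0), STARD4 (8.25 ± 2.60) and CYP51A1 (8.97 ± 0.96). The spread of STARD4 overlaps those of TM7SF2 and CYP51A1, which do not overlap each other. In sh-KLF5 the level of SCD was 599 ± 366 and that of FASN 482 ± 181, with spreads that overlap, and STARD4 was at 0.334 ± 0.0812.

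Because sh-KLF5 3 moved the group means so far, each library was left out in turn and the fit repeated. Without sh-KLF5 3, 17 of 34 members were higher in sh-KLF5, beside 5.87% of the genes tested in that fit. They were 10 cholesterol enzymes (HMGCS1, MVK, MVD, IDI1, FDFT1, SQLE, MSMO1, HSD17B7, SC5D and DHCR7), the regulators INSIG1 and SREBF1, and 5 fatty acid genes (ACSS2, FASN, SCD, ELOVL6 and LPIN1). Their log2 fold changes without that library ran from 0.43 in SQLE to 1.40 in INSIG1, and 3 of the 17 exceeded 1. For INSIG1 the adjusted p was 4.56e-06 by limma without sh-KLF5 3 and 0.323 to 0.852 under the other 14 alternatives, and for MSMO1 it was 0.000133 against 0.332 to 0.838. FASN had 8.69e-05 against 0.0146 to 0.517. These calls are no separate test, since sh-KLF5 3 had already been seen as the lowest knockdown library in 31 of 34 members. Leaving out any of the other 5 libraries gave 0 members higher by limma. STARD4 stayed lower in all 6 of these fits, and it alone without sh-KLF5 3, where 7.01% of tested genes were lower. ACAT2 joined it without sh-KLF5 1, where 9.25% of tested genes were lower, and FDPS joined it without sh-KLF5 2, where 5.7% were. The knockdown arm then rests on 2 libraries. Over all genes, sh-KLF5 2 and 3 were the most alike of the knockdown libraries (chi-square per degree of freedom 11.6, against 26.4 for 1 and 2 and 34.3 for 1 and 3), whereas in 19 of 34 members sh-KLF5 1 and 2 were above all controls and sh-KLF5 3 below them.

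**Figure D4:**
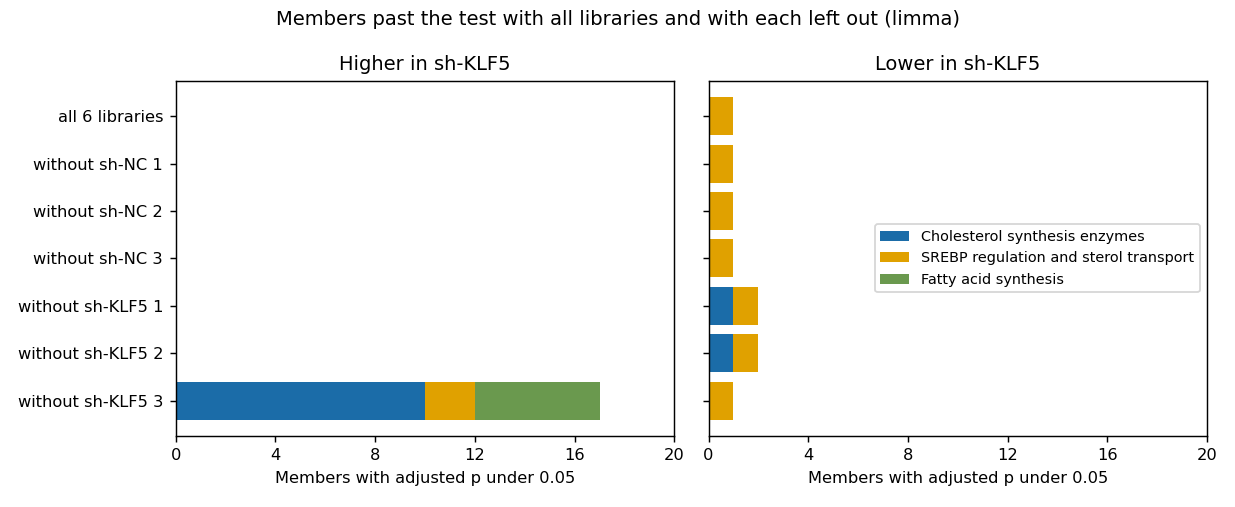
Number of members (x axis) past the limma test as higher (left panel) or lower (right panel) in sh-KLF5, with all 6 libraries and with each library left out (y axis), coloured by list. The left panel is empty except without sh-KLF5 3, where 10 cholesterol enzymes, 2 regulators and 5 fatty acid genes are counted, and the right panel holds 1 or 2 members in every fit.

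That arrangement was seen in 11 of 18 cholesterol enzymes (61.1%) and in 5 of 10 fatty acid genes (50.0%), and sh-KLF5 3 was the lowest of its group in 16 of 18 and in 10 of 10. It lay more than 1 log2 unit below the other knockdown libraries in 8 of 18 and in 2 of 10. The fall of sh-KLF5 3 below the sh-NC mean was larger in the median cholesterol enzyme (0.52 on the log2 scale) than in the median fatty acid gene (0.20). The deepest values in these lists, however, were those of the fatty acid genes SCD (-1.54) and FADS2 (-1.41). The deepest cholesterol enzyme was FDPS (-0.93). None of these differences between the lists was tested.

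The wider lipid genes were described from 7 further lists of 88 genes, of which 87 were in the table and 84 were tested. In these, 12 genes were higher and 3 lower by limma, beside 6.04% and 6.85% of all tested genes. The sterol efflux and LXR list had 2 higher and 1 lower of 6 tested. APOE, the apolipoprotein that carries exported cholesterol, had 85.7, 62.1 and 83.8 normalized counts in sh-NC and 21.4, 22.3 and 13.0 in sh-KLF5 (log2 fold change -1.99 ± 0.30, adjusted p = 0.000229). ABCA1, the cholesterol exporter, had 28.9, 28.6 and 22.3 in sh-NC and 82.6, 71.8 and 32.1 in sh-KLF5 (1.10 ± 0.34, adjusted p = 0.0431), and like the members it was lowest in sh-KLF5 3. Its call was lost with any single library other than sh-KLF5 3 left out, and when libraries were scaled by their size alone (log2 fold change 1.10, adjusted p = 0.0571, limma).

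Of 13 genes of cholesterol uptake, trafficking and esterification, 4 were higher and none lower by limma, though 1 of these 13 was lower at an unadjusted p under 0.05. NPC1 and NPC2, which release cholesterol from lysosomes, were higher in every knockdown library. NPC1 had 2824, 2662 and 2809 normalized counts in sh-NC and 4384, 4318 and 4056 in sh-KLF5 (log2 fold change 0.62 ± 0.11, adjusted p = 0.000845). NPC2 had 826, 935 and 963 in sh-NC and 1844, 1478 and 1309 in sh-KLF5 (0.75 ± 0.13, adjusted p = 0.00109). GRAMD1A, which moves cholesterol at membrane contacts, and SCARB1, the HDL receptor, were the other 2. In this list sh-KLF5 3 was the lowest of its group in 6 of 13 genes, and so was sh-KLF5 1. Over all tested genes these shares were 30.0% for sh-KLF5 3 and 38.5% for sh-KLF5 1.

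Of 11 genes of SREBP processing and sterol-regulated degradation, ERLIN2 was lower by limma and none was higher. ERLIN2, which takes part in degradation at the endoplasmic reticulum, had 1205, 1192 and 1263 normalized counts in sh-NC and 925, 922 and 874 in sh-KLF5 (log2 fold change -0.43 ± 0.11, adjusted p = 0.0164). This call was lost when any 1 control library was left out. None of 12 genes of the isoprenoid branch passed by limma, and 1 had an unadjusted p under 0.05.

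Among 15 tested genes of other fatty acid synthesis, elongation and desaturation, ELOVL1, ELOVL2 and FADS3 were higher. ELOVL2, an elongase of polyunsaturated fatty acids, had 44.7, 48.3 and 47.7 normalized counts in sh-NC and 93.8, 106 and 120.3 in sh-KLF5 (log2 fold change 1.16 ± 0.22, adjusted p = 0.00154). Among 10 of fatty acid activation and glycerolipid synthesis, ACSL4, ACSL5 and LPIN2 were higher. LPIN2, a relative of LPIN1, had 1033, 996 and 956 in sh-NC and 1915, 1847 and 1879 in sh-KLF5 (0.92 ± 0.11, adjusted p = 2.33e-05), so its 3 knockdown libraries were alike where those of LPIN1 were not. ACSL4, which activates arachidonic acid, had 4982, 5027 and 4487 in sh-NC and 10936, 8015 and 7779 in sh-KLF5 (0.87 ± 0.13, adjusted p = 0.000319). Among 17 genes of fatty acid oxidation the only one past the test was ACAA2, the mitochondrial thiolase, with 209, 166 and 163 in sh-NC and 29.6, 29.1 and 44.1 in sh-KLF5 (-2.37 ± 0.23, adjusted p = 3.32e-06, all by limma).

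**Figure D5:**
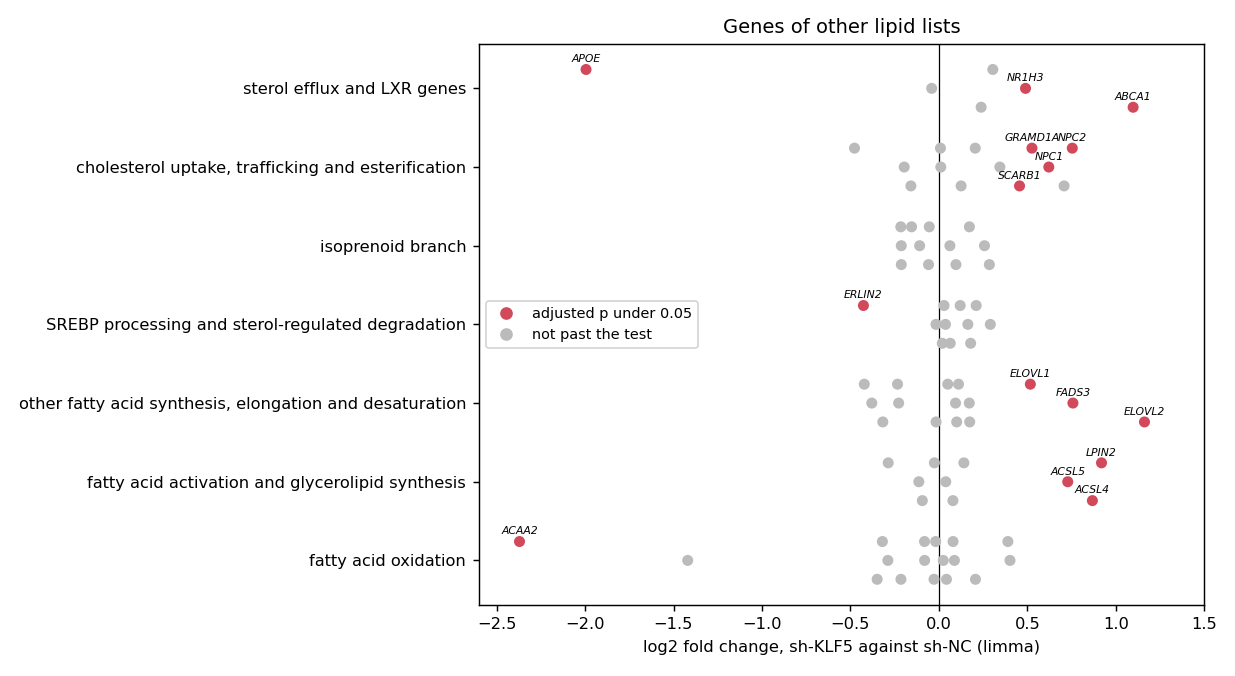
Log2 fold change between sh-KLF5 and sh-NC by limma (x axis) of each tested gene in 7 further lipid lists (y axis), with a point per gene, red and named where the adjusted p is under 0.05. Of 84 genes, 12 are red on the right and 3 on the left, and APOE (-1.99) and ACAA2 (-2.37) lie furthest from 0.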

How the data were processed

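Poly(A) RNA of 6 SKOV3 libraries was sequenced. The authors deposited 1 table of normalized counts, a signal equal to the reads on each gene divided by 1 factor per library. The submitters' processing notes name HISAT2 2.0.5, featureCounts 1.5.0-p3 and DESeq2 1.20.0 on hg38, without their roles. The deposited columns of group means, log2 fold changes and p-values of the authors were not used, and 0 other columns of per-sample values were present. All values (100%) were whole multiples of a step per library (tolerance 1e-06), which gave the reads. All 29185 genes had the coordinates of GENCODE 29.

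Under R 4.3.3, limma 3.58.1 (with trend and robust) compared the groups two-sided on log2(normalized count + 1). Genes had first to pass filterByExpr of edgeR at min.count 10, as 15803 genes did, with Benjamini-Hochberg adjustment over all of them at 0.05. A fold change on this scale understates the change of low genes. Alternatives were edgeR 4.0.16 and DESeq2 1.42.0 on the recovered reads, other scalings, pseudocounts and filters, each library left out, and the replicate number as a block. The script was tested on simulated data. A count of 0 allows up to 3 reads, or 0.171 to 0.189 CPM, counting error only.

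The members and lists were chosen with earlier results of these data known. Values in every library are given for members past the test, SREBF1, SREBF2, SCAP, INSIG1, INSIG2 and KLF5, and, from each other lipid list, for up to 4 genes past the test with a log2 fold change beyond 1 or else up to 2 past the test. An item of these lists is not reported here. Other members shown in full were chosen after their values were seen. Levels between genes are TPM over the exonic length. Libraries of a group differed by more than counting noise (chi-square per degree of freedom 4.66 to 34.3). Python 3.11.15 and matplotlib 3.10.9 drew the figures.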

Additional observations from a re-analysis of the deposited data

How the results depend on the processing

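KLF5 stayed lower in all alternatives. STARD4 stayed lower wherever it was tested; at least 10 reads in every library left 0 regulators lower, since STARD4 was not tested. Without filter (3.87% of 29185 genes higher, 4.94% lower), 2 cholesterol enzymes were lower (ACAT2 and FDPS), 1 regulator higher (SREBF1) and 2 fatty acid genes higher (FASN and ELOVL6), and DESeq2 also gave these 2. Other tools, scalings and pseudocounts added no member, while scaling by library size alone lost ABCA1 and added CPT1A as lower among the other lipid genes.

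Correlations of deviations were 0.059, 0.033 and 0.050 between libraries of the same replicate number. Between libraries of different numbers they ran from -0.057 to -0.0011. All were near 0, and these values do not settle whether the replicate numbers pair the libraries. With the number as a replicate block (8.18% of tested genes higher, 8.75% lower), 2 cholesterol enzymes (ACAT2 and FDPS) were lower, 2 fatty acid genes (FASN and ELOVL6) were higher and 6 other lipid genes were lower in place of 3.

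With 1 library left out at a time, genes called over the whole table ran from 518 to 1272 higher and from 699 to 1514 lower. Cholesterol enzymes ran from 0 to 10 higher and from 0 to 1 lower, regulators from 0 to 2 higher, fatty acid genes from 0 to 5 higher, and other lipid genes from 2 to 7 lower. Each upper number of higher members came without sh-KLF5 3.

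Signs turned in 16 members with 1 library left out and in 2 under other alternatives, and none of these 16 passed with all libraries. On the log2 scale with 1 library left out, HMGCS1 from -0.14 to 0.55, MVD from -0.12 to 0.62, FDFT1 from -0.034 to 0.49, SQLE from -0.034 to 0.43, LSS from -0.37 to 0.24, CYP51A1 from -0.23 to 0.67, NSDHL from -0.31 to 0.14, HSD17B7 from -0.012 to 0.66, EBP from -0.085 to 0.18, DHCR7 from -0.12 to 0.57, ACLY from -0.088 to 0.10, ACSS2 from -0.085 to 0.44, ACACA from -0.17 to 0.025, SCD from -0.49 to 0.56, FADS2 from -0.59 to 0.26 and ELOVL5 from -0.064 to 0.081 lay on both sides of 0. NSDHL was 0.027, 0.023 and 0.027 and SCD 0.14, 0.13 and 0.14 by edgeR, DESeq2 and edgeR with TMM factors, against -0.03 and -0.14 by limma. The cause was not tested. Groups of 3 limit all members with a wide spread.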

Other observations

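A few further genes in which sh-KLF5 3 stood apart from the other knockdown libraries are given as values, chosen after their values were seen. All but CPT1A, a gene of the fatty acid oxidation list, are outside the lists. ERG28, which organises the sterol demethylation enzymes at the endoplasmic reticulum, had 1550, 1371 and 1810 normalized counts in sh-NC and 2257, 1818 and 961 in sh-KLF5, the arrangement of the cholesterol enzymes. ANGPTL4, an inhibitor of lipoprotein lipase that fatty acids induce through PPAR receptors, had 50.3, 93.6 and 151 in sh-NC and 57.1, 71.8 and 372 in sh-KLF5, highest in the library in which the synthesis genes were lowest. CPT1A, the gate of mitochondrial fatty acid oxidation, had 1323, 1475 and 1602 in sh-NC and 351, 429.8 and 1079 in sh-KLF5, below the controls in all 3 knockdown libraries and least so in sh-KLF5 3 (log2 fold change -1.42 ± 0.42, SE, limma, adjusted p = 0.0901). CPT1A passed as lower without sh-KLF5 3 (-1.91, adjusted p = 1.8e-07, limma), under scaling by library size alone and in the fit blocked on replicate number, and did not pass under the other 12 alternatives. The chemokine gene CXCL1 had 118, 109 and 194 in sh-NC and 889, 843 and 329 in sh-KLF5 (2.20 ± 0.41, limma, adjusted p = 0.0116), higher in each knockdown library and least so in sh-KLF5 3. SLPI, a protease inhibitor, had 347, 278 and 409 in sh-NC and 359.8, 297 and 127 in sh-KLF5.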
